A study of Mus musculus with 830 samples.

Results

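Pdx1-positive cells with low or no Neurod1 were compared between mouse embryos with GFP on both Neurog3 alleles (genotype Ngn3-GFP/GFP, called HM) and embryos with GFP on 1 Neurog3 allele (Ngn3-GFP/+, called HZ). Cells of both genotypes came from the endoderm of C57BL/6XC3H embryos of 18, 21 and 24 somites, were stained for the epithelial surface protein EpCAM, sorted with DAPI to exclude dead cells, and sequenced 1 by 1 with the plate-based method Smart-seq3xpress. Both genotypes thus carry the GFP reporter, and the remaining cells of the series (genotype Ngn3-Cre; Ai6) were not compared here. The cells were chosen by their measured Pdx1 and Neurod1 reads: at least 100000 reads in all, Pdx1 at 50 counts per 1000000 reads of the cell (CPM) or more, and Neurod1 under 50 CPM. Both genes are therefore described and not tested. This gave 55 cells of the 830 in the series, 32 HM and 23 HZ, out of 375 HM and HZ cells of these stages with enough reads. The labels name no embryo, so reads were summed over the chosen cells per genotype and stage to a pool, and the 3 HM and 3 HZ pools were the units of every test of genotype. The labels distinguish no batches, and the sources used here do not say whether the sort was gated on GFP.

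Pdx1 is the homeobox factor that marks the epithelium of the early pancreatic buds, and it is also expressed in the neighbouring duodenum. Pancreatic progenitors combine it with Sox9, Mnx1, Nkx6 factors and Ptf1a, and a few of them at a time switch on Neurog3 (Ngn3 in the genotype names), a transcription factor with a basic helix-loop-helix domain on which entry into the endocrine lineage depends, followed by Neurod1. The comparison asks which genes differ in Pdx1-positive cells with low or no Neurod1 when both Neurog3 alleles carry GFP.

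The HM pools held 5, 7 and 20 cells at 18, 21 and 24 somites, and the HZ pools held 7, 8 and 8 cells. Pools ranged from 3480538 to 13304268 reads, and the median cell had 691502 reads in HM and 583114 in HZ. These cells were 32 of 124 HM cells with enough reads (25.8%, exact 95% interval 18.4% to 34.4%) and 23 of 251 HZ cells (9.16%, 5.90% to 13.4%). Among cells with Neurod1 under 50 CPM they were 32 of 113 in HM (28.3%) and 23 of 122 in HZ (18.9%). The thresholds set these shares, which are given as a description, and the intervals cover counting error alone. Cells with both genes past their thresholds numbered 0 of 124 in HM, which allows a share of up to 2.42%, and 6 of 251 in HZ (2.39%). The lowest Pdx1 levels inside the threshold were 50.3 CPM (HZ), 51.8 and 53.3 CPM (both HM), and the highest outside were 45.4, 45.3 and 44.0 CPM (all HZ). For Neurod1 the nearest cells inside had 43.8 CPM (HM), 29.8 CPM (HZ) and 20.6 CPM (HM), and those outside had 82.9, 115 and 137 CPM (all HZ).

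The 3 sequences below are the 250 bases before the annotated start of Neurog3, the gene the reporter alters, and of 2 genes with small p-values in the comparison, Slc38a5 and Btg2, taken from RefSeq on GRCm38.p6. Capitals mark CANNTG, the E-box to which basic helix-loop-helix factors as a class bind; it reads the same on both strands. The windows are chr10:62132840-62133089 (plus strand), chrX:8271131-8271380 (plus strand) and chr1:134079156-134079405 (minus strand, printed in the direction of the gene).
Neurog3: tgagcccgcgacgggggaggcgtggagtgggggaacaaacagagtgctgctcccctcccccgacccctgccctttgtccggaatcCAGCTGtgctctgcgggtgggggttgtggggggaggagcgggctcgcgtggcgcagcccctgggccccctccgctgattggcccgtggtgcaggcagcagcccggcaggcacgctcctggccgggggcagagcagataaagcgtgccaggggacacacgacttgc
Slc38a5: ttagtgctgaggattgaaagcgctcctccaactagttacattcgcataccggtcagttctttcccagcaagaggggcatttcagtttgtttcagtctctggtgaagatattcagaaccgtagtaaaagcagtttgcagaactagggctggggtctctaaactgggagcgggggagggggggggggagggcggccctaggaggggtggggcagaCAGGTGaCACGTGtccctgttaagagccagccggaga
Btg2: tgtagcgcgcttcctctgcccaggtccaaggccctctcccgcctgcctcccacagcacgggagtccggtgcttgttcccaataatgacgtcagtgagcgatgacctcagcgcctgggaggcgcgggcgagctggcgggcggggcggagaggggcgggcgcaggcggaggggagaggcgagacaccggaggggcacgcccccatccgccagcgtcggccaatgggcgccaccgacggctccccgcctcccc
The Neurog3 window held 1 E-box (CAGCTG), the Slc38a5 window 2 (CAGGTG and CACGTG) and the Btg2 window 0. Of 32851 RefSeq promoter windows of this length 66.2% held at least 1 E-box and 31.8% at least 2, so these numbers of E-boxes are common. No binding was measured here.

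The pancreatic label was checked against markers that the thresholds did not use. Sox9, a factor of the progenitor epithelium, reached 10 CPM in 30 of 32 HM cells and 23 of 23 HZ cells. Mnx1, needed for the dorsal pancreatic bud, reached that level in 20 of 32 HM and 17 of 23 HZ cells, and Nkx6-2 in 29 of 32 HM and 20 of 23 HZ cells. Ptf1a, a factor of pancreatic and later acinar fate, reached it in 10 HM and 3 HZ cells, all of 24 somites. The population is nonetheless mixed. Of 32 HM cells 15 carried at least 50 CPM of Cdx2, the caudal factor of the duodenum and intestine, as did 6 of 23 HZ cells. By stage these were 0 of 5, 5 of 7 and 10 of 20 HM cells and 3 of 7, 2 of 8 and 1 of 8 HZ cells at 18, 21 and 24 somites. Mnx1 reached 10 CPM in 6 of the 15 HM and 3 of the 6 HZ cells with high Cdx2, and in 14 of 17 HM and 14 of 17 HZ cells without. The cells are therefore called Pdx1-positive cells below, since pancreatic and duodenal epithelium may both be among them, and the Cdx2 threshold was chosen after its values were seen.

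Pancreatic transcription factors were present in both genotypes, and none passed the test (edgeR's quasi-likelihood test with stage as a factor, Benjamini-Hochberg adjustment over 12463 genes). Pdx1, which chose the cells, had 159, 126 and 143 CPM (scaled with TMM factors, as are all pool levels below) in the HM pools of 18, 21 and 24 somites and 94.3, 95.7 and 132 CPM in the HZ pools. Sox9 had 518, 349 and 500 CPM in HM pools and 279, 631 and 885 CPM in HZ pools. Its ranges overlapped, with HM above HZ at 18 somites and below it at the other stages, and the log2 fold change of HM over HZ was -0.28 ± 0.31 (SE). Mnx1 had 30.8, 23.4 and 28.6 CPM in HM pools and 42.7, 26.7 and 26.8 CPM in HZ pools, again overlapping (log2 fold change -0.19 ± 0.60). Nkx6-2, which overlaps with Nkx6-1 in function in the early mouse pancreas, had 102, 45.4 and 160 CPM in HM pools and 22.6, 141 and 141 CPM in HZ pools. Its log2 fold change of 0.22 had a 95% interval of -1.12 to 1.57, so changes of either sign that exceed the 2-fold line remain possible. Nkx6-1 was low, at 0, 0 and 2.99 CPM in HM pools and 0, 1.29 and 4.60 CPM in HZ pools. The endoderm factor Foxa2 (log2 fold change -0.09 ± 0.34) and the Notch target Hes1 (-0.17 ± 0.35) had small fitted differences with overlapping pools, and Onecut1 (0.47 ± 0.86) was less well determined.

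**Figure D1:**
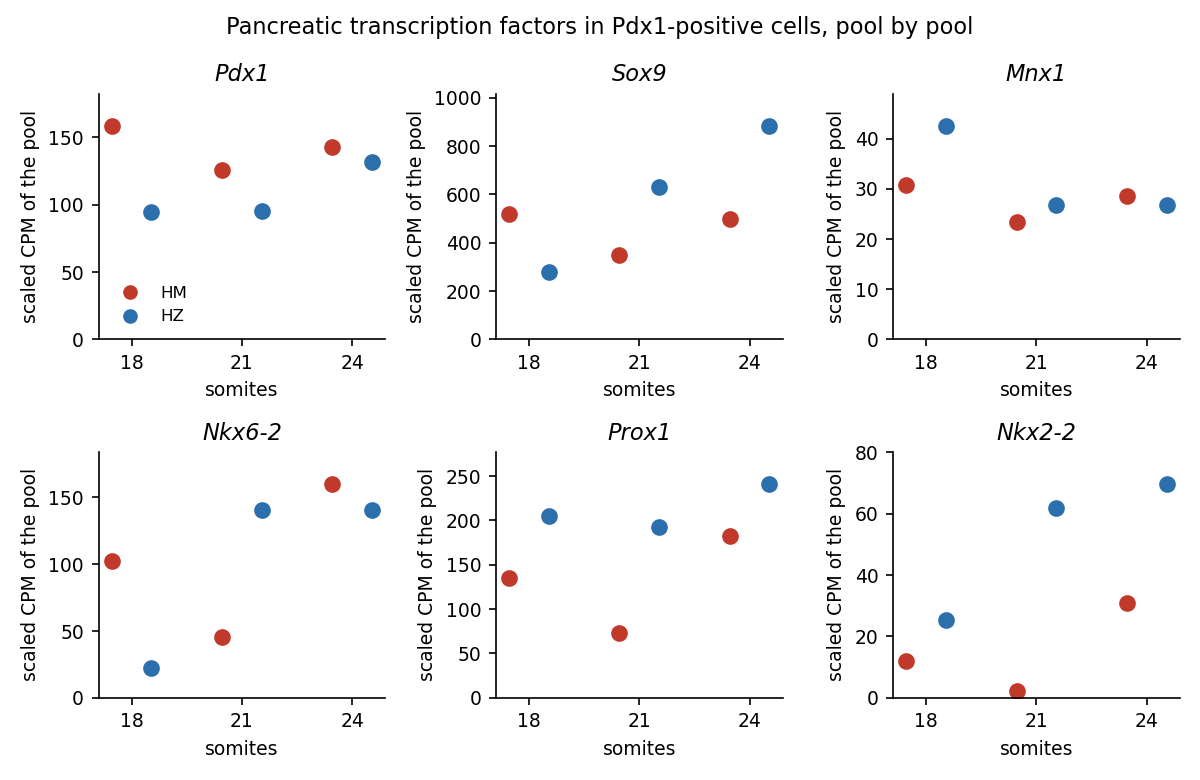
Levels of 6 pancreatic transcription factors (scaled CPM, linear axes from 0) in the pools of Pdx1-positive cells by somite number, 1 point per pool, HM left in red and HZ right in blue. Sox9, Mnx1 and Nkx6-2 overlap between the genotypes, the 3 HM pools of Prox1 lie below the 3 HZ pools, and Pdx1 was used to choose the cells.

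Of 24 tested genes of the pancreatic progenitor list (25 without Pdx1), 0 passed the test, and the median log2 fold change was 0.09, beside -0.05 over all genes tested. At an unadjusted p under 0.05, 3 of the 24 were lower in HM and 1 was higher, where 2.17% of all genes were lower and 1.14% higher. The 3 lower ones are factors that stay on as endocrine cells form. Prox1, a homeobox factor of pancreas and liver, had 135, 72.9 and 183 CPM in HM pools and 206, 193 and 241 CPM in HZ pools. All HM pools lay below all HZ pools (log2 fold change -0.80 ± 0.29, unadjusted p = 0.0184, edgeR adjusted p = 1.00). Nkx2-2, a homeobox factor kept in most endocrine cells, had 12.0, 2.23 and 30.9 CPM in HM pools and 25.5, 61.8 and 69.7 CPM in HZ pools, lower in HM at each stage though the ranges overlapped (log2 fold change -2.17 ± 0.84). Isl1, a LIM homeobox factor of endocrine cells, had 0.880, 2.23 and 6.13 CPM in HM pools and 14.6, 4.52 and 173 CPM in HZ pools. It was lower in HM at each stage, with most of its HZ level at 24 somites. Gata4 was the 1 higher gene, with 144, 174 and 177 CPM in HM pools and 79.0, 92.0 and 149 CPM in HZ pools (log2 fold change 0.67 ± 0.30, unadjusted p = 0.0431). Progenitor list genes passing as lower numbered 2, 1 and 0 without HM of 18, 21 and 24 somites and 1, 1 and 0 without HZ of those stages. It was also 1 with no filter on low counts, with no Neurod1 threshold and in DESeq2. Of the 9 tested tip and acinar genes 0 passed, and their median was 0.61, which became 0.00 without HM or without HZ of 24 somites. Ptf1a itself was at 0, 2.05 and 15.2 CPM in HM pools and 0, 0 and 13.4 CPM in HZ pools, which places its reads almost wholly at 24 somites in both genotypes. Of the 8 tested trunk and duct genes 0 passed, at a median of -0.36.

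Neurog3 (chromosome 10, 62133090 to 62134763, GRCm38) was measured in Pdx1-positive cells of both genotypes. It had 22.3, 9.12 and 10.9 CPM in the HM pools of 18, 21 and 24 somites and 57.1, 61.8 and 25.0 CPM in the HZ pools. Every HM pool lay below every HZ pool, as did 5.04% of all genes tested. The log2 fold change was -1.76 ± 0.65 (95% interval -3.18 to -0.33), with an unadjusted p of 0.0202 and an edgeR adjusted p of 1.00, so it did not pass. The labels do not say which part of the gene GFP replaced, so these reads do not check the genotype.

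Single HM cells had 0 to 57.9 CPM of Neurog3 (median 7.56), and single HZ cells had 0 to 529 CPM (median 13.2). At 10 CPM or more there were 14 of 32 HM cells and 13 of 23 HZ cells. Per pool the share was 80.0%, 42.9% and 35.0% in HM and 57.1%, 50.0% and 62.5% in HZ, a mean of 52.6% ± 24.0 in HM and 56.5% ± 6.27 in HZ (SD, n = 3 pools each, two-sided exact permutation p = 0.9). At 50 CPM or more there was 1 of 32 HM cells and there were 5 of 23 HZ cells, a mean share of 4.76% ± 8.25 in HM and 22.0% ± 8.44 in HZ (SD, n = 3 pools each, exact permutation p = 0.2). The smallest p that 3 pools against 3 can give is 0.1. With each cell thinned to 100000 reads the mean shares at 10 CPM were 56.0% in HM and 60.1% in HZ (exact permutation p = 1 over pools), and those at 50 CPM did not change. In 24 Pdx1-low cells with liver markers, which should lack Neurog3, 1 cell (4.17%, exact interval 0.105% to 21.1%) reached 10 CPM at a median of 1025950 reads per cell.

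1 gene passed the test across all genes, and it was lower in HM. Nefm (chromosome 14, 68082590 to 68124846), which encodes the medium neurofilament chain of the neuronal cytoskeleton, had 0, 2.42 and 3.43 CPM in HM pools and 60.6, 108 and 213 CPM in HZ pools. The 0 at 18 somites allows up to 0.862 CPM. HM and HZ pools were far apart at every stage, and the log2 fold change was -6.17 ± 0.66 (edgeR adjusted p = 0.0154). This is 0.00802% of the 12463 genes tested, and 0 genes (0%) passed as higher in HM; at an unadjusted p under 0.05 edgeR gave 270 lower and 142 higher genes. DESeq2 called 49 lower and 12 higher, and limma on mean log2 values per pool called 0 in either direction, with 913 lower and 153 higher on CPM and 930 and 136 on TPM at an unadjusted p under 0.05. The number called moved with single pools: 57 lower and 13 higher without HM of 18 somites, 30 and 3 without HM of 21, 3 and 0 without HM of 24, 56 and 13 without HZ of 18, 27 and 2 without HZ of 21, and 0 and 0 without HZ of 24. The 25 alternatives are not independent. Pools of at least 1 or 5 cells repeated the main fit. Leaving out either pool of a stage takes that stage out of the genotype contrast, with similar fold changes for both genotypes. Nefm kept its sign in all 25 alternatives (log2 fold change -6.79 to -2.16) and passed in 16. It did not pass without the HZ pool of 24 somites (adjusted p = 0.0902), without stage as a factor (0.203), with genes filtered at a mean of 5 CPM (0.153), with Pdx1 thresholds of 25 CPM (0.397) or 100 CPM (0.173), with Neurod1 under 10 CPM (0.0674), with cells of Neurog3 under 50 CPM alone (1.00), or in limma (0.742 on CPM and 0.754 on TPM).

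Nefm was not spread over the HZ cells. In 7 of 23 HZ cells it reached 100 CPM (129 to 912 CPM), and the next HZ cell had 11.5 CPM. No HM cell reached that level (0 of 32, which allows a share of up to 9.38%), and the highest HM cell had 20.6 CPM. In both genotypes most cells had little or none, the median being 0.941 CPM in HM cells against 4.41 CPM in HZ cells.

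Slc38a5, a neutral amino acid transporter on chromosome X (8271133 to 8280179), was next. It had 56.6, 51.4 and 63.8 CPM in HM pools and 261, 284 and 1358 CPM in HZ pools. The groups did not overlap, and HM pools differed little from each other (log2 fold change -3.01 ± 0.39), yet the edgeR adjusted p of 0.0502 lay just past the threshold. It passed in 13 of 25 alternatives, among them 5 of the 6 fits without 1 pool, the exception being that without HZ of 24 somites (adjusted p = 0.0902). Fits without HM and without HZ of a stage are near repeats (log2 fold change -3.44 in both for 18 somites), so these tallies overstate the number of separate checks. Slc38a5 was detected in most cells, with a median of 29.3 CPM in HM cells against 58.3 CPM in HZ cells, and 6 HZ cells and 0 HM cells had 1000 CPM or more. Runx1t1, a transcriptional corepressor of the ETO family, had 0, 5.02 and 22.5 CPM in HM pools and 39.5, 147 and 175 CPM in HZ pools (log2 fold change -4.55 ± 0.76, edgeR adjusted p = 0.188). At 21 somites 99.3% of the HZ reads came from 1 cell. Wtap, a subunit of the RNA methylation complex, had 68.4, 92.3 and 183 CPM in HM pools and 394, 233 and 507 CPM in HZ pools (log2 fold change -1.77 ± 0.28, adjusted p = 0.181). The unnamed transcript 1700086L19Rik had 0, 0 and 2.33 CPM in HM pools and 3.14, 6.68 and 155 CPM in HZ pools. It was lower in HM at each stage, with most of its HZ level at 24 somites.

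The high values of these genes met in the same few HZ cells. With thresholds chosen after the values were seen (Nefm 100 CPM, Slc38a5 1000 CPM, Runx1t1 100 CPM, Neurog3 50 CPM), 8 of 23 HZ cells passed at least 1, 6 passed at least 2 and 3 passed all 4, against 2, 0 and 0 of 32 HM cells. All 6 HZ cells with high Slc38a5 and all 5 with high Runx1t1 were among the 7 with high Nefm, and 4 of the 5 with high Neurog3 were. These 8 cells had 50.3 to 247 CPM of Pdx1 and at most 29.8 CPM of Neurod1, and all had Sox9, at 135 to 1730 CPM. One HZ cell of 21 somites carried the highest Neurog3 (529 CPM) with 437 CPM of Nefm, 1087 CPM of Slc38a5 and 10.6 CPM of Runx1t1. In a cell of 24 somites the order of these was different, with 13.2 CPM of Neurog3, 912 CPM of Nefm, 6318 CPM of Slc38a5 and 570 CPM of Runx1t1. The number of Neurog3 programme genes detected per cell, out of 34 besides Neurog3 and with each cell thinned to 100000 reads, ran from 7 to 19 in HM (median 12) and from 7 to 29 in HZ (median 15). A cut of 20 or more lies just above the highest HM cell, so 0 HM cells reach it by that choice. It was reached by 8 HZ cells, and 7 of those 8 had high Nefm. Runx1t1 is itself on that list.

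**Figure D2:**
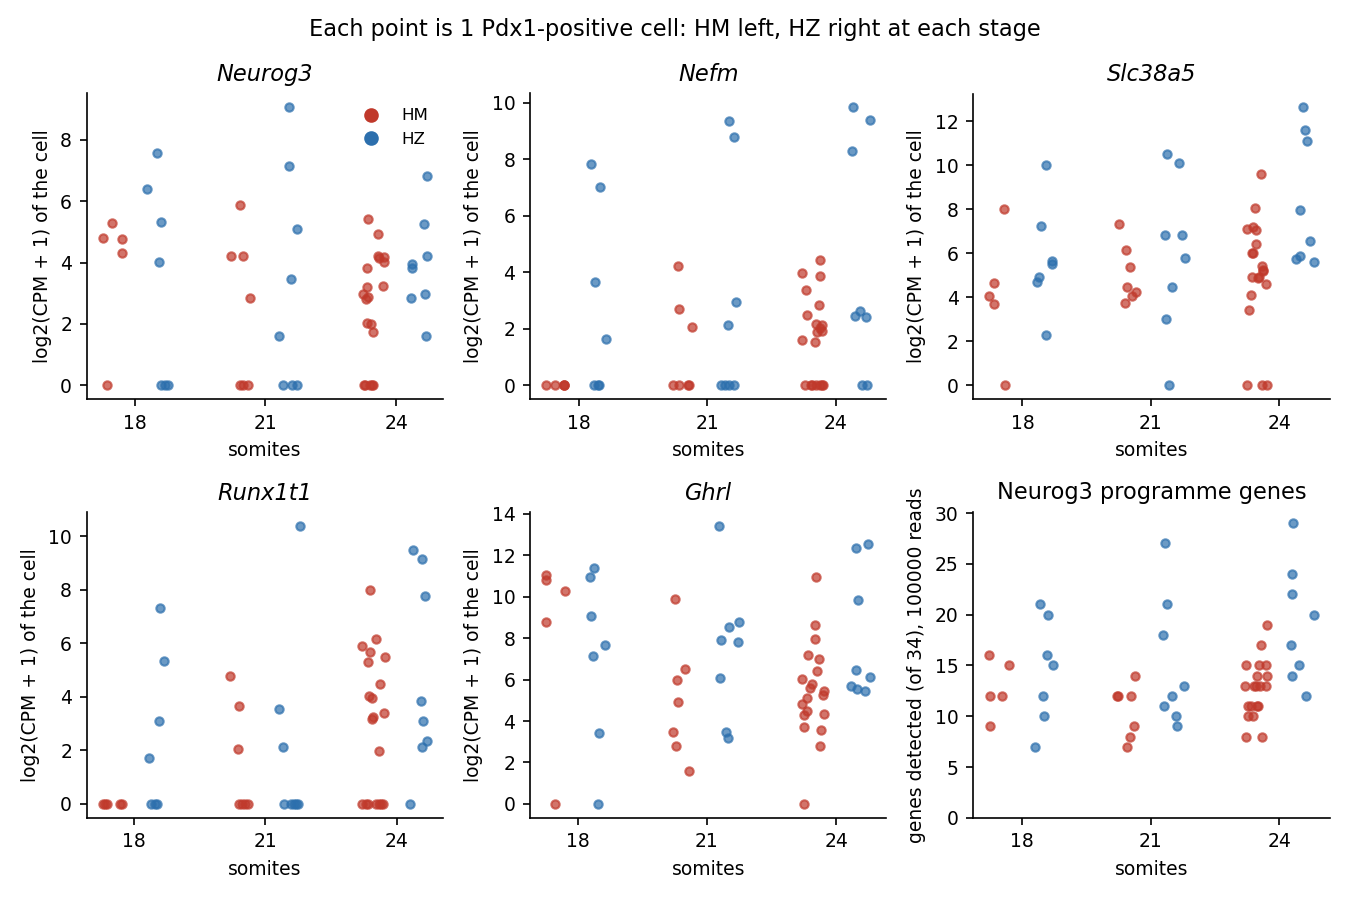
Each point is 1 Pdx1-positive cell at 18, 21 or 24 somites, HM left in red and HZ right in blue, with log2(CPM + 1) for 5 genes and, in the last panel, the number of Neurog3 programme genes detected at 100000 reads. Most HM and HZ cells overlap at low values, and 7 HZ cells stand at 129 to 912 CPM of Nefm, above the highest HM cell at 20.6 CPM.

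The Neurog3 programme list holds 35 genes, namely Neurog3 itself and genes that follow it in endocrine differentiation or slow the cell cycle there. Like the other lists, it was chosen with earlier results of these data known. Its shares beside those of all genes are therefore a description and not an independent test. Of these 28 were tested, 0 passed, 26 had a negative log2 fold change (53.3% of all genes did), and the median was -1.59. At an unadjusted p under 0.05, 11 of 28 were lower in HM and 0 higher, beside 2.17% and 1.14% of all genes, and 8 of 28 had every HM pool below every HZ pool, beside 5.04%. Btg2, an antiproliferative factor, had 27.9, 13.4 and 58.1 CPM in HM pools and 142, 50.4 and 239 CPM in HZ pools, lower in HM at each stage (log2 fold change -2.10 ± 0.36, edgeR adjusted p = 0.188). Cdkn1a, the p21 inhibitor of cyclin-dependent kinases, had 279, 185 and 188 CPM in HM pools and 372, 486 and 489 CPM in HZ pools. Its groups did not overlap (log2 fold change -1.07 ± 0.25, edgeR adjusted p = 0.681). It reached 10 CPM in 30 of 32 HM and 22 of 23 HZ cells, but the 8 HZ cells past at least 1 of the 4 thresholds above held 70.3% of the HZ reads, at 500 to 1941 CPM. The cells past none had a mean of 193 CPM among 30 HM cells and 181 CPM among 15 HZ cells. Those thresholds were chosen after the values were seen and set aside 2 HM and 8 HZ cells. This split therefore cannot show which cells carry the Cdkn1a difference. Cbfa2t3, a corepressor related to Runx1t1, had 0.293, 0 and 3.72 CPM in HM pools and 1.46, 47.0 and 73.9 CPM in HZ pools. The 2 members with a positive value were Hes6 (0.31 ± 0.36) and Lmx1b (0.27 ± 0.64). Peg3, an imprinted zinc finger gene, had 3363, 2627 and 3295 CPM in HM pools and 3170, 3476 and 3052 CPM in HZ pools (log2 fold change -0.07 ± 0.12). The list's counts moved with the cells chosen. With cells of Neurog3 under 50 CPM alone, the median was -0.46 and 4 of 27 were lower at an unadjusted p under 0.05. That choice removes 1 HM and 5 HZ cells by a gene of the list, so it cannot show which cells carry the difference. Without a Neurod1 threshold 17 of 31 were lower at that level. Single pools moved this number too, to 17 of 33 without HM of 18 somites or without HZ of 18 somites and to 5 of 28 without HZ of 24 somites. List genes passing as lower then numbered 10, 3 and 1 without HM of 18, 21 and 24 somites and 9, 3 and 0 without HZ of those stages. With Pdx1 at 100 CPM or more it was 6 of 29, and with Neurod1 under 10 CPM it was 7 of 27.

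**Figure D3:**
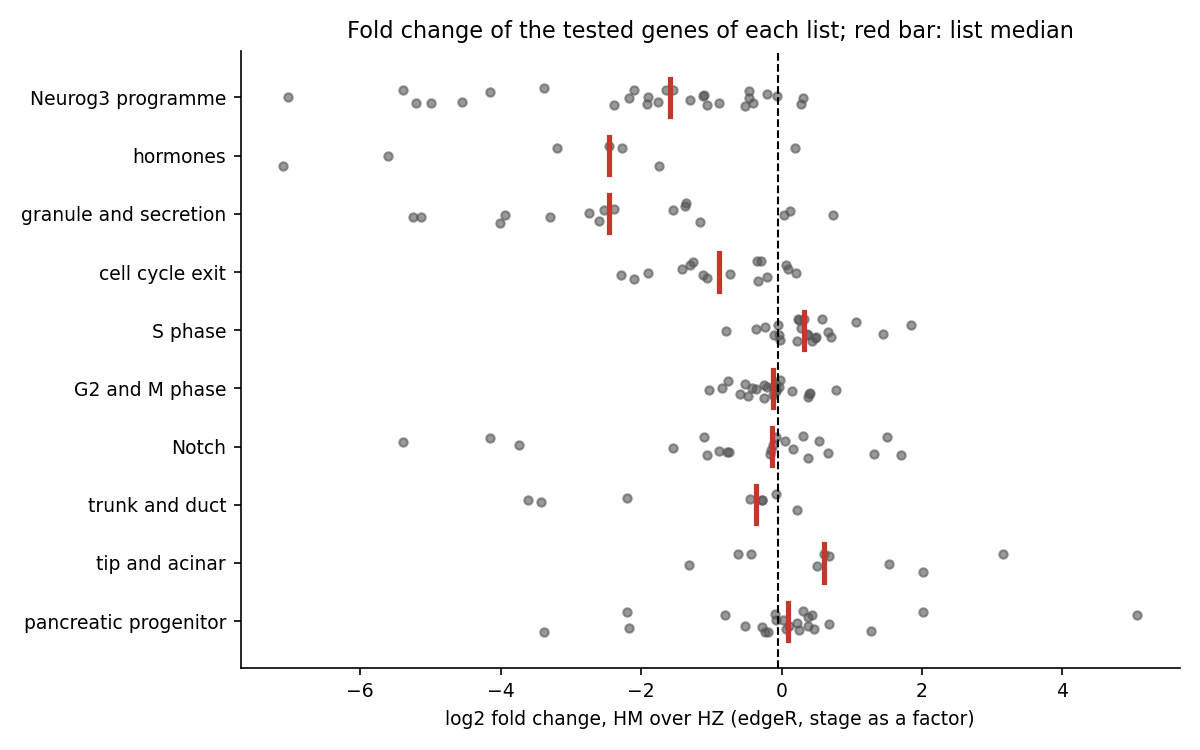
Log2 fold changes of HM over HZ (edgeR, stage as a factor) for the tested genes of 10 lists, 1 grey point per gene, with the list median as a red bar and the median of all genes (-0.05) as a dashed line; Pdx1 is left out. The Neurog3 programme, hormone and granule lists have medians of -1.59, -2.45 and -2.45, and the pancreatic progenitor list one of 0.09.

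Peptide hormones and the machinery that stores and releases them were already measurable in cells chosen for low Neurod1. Of 15 hormone genes 7 were tested, 0 passed and 4 were lower in HM at an unadjusted p under 0.05, beside 2.17% of all genes, with a median log2 fold change of -2.45. The 4 became 1 of 6 with Neurod1 under 10 CPM, 1 of 5 with cells of Neurog3 under 50 CPM alone and 1 of 5 with no stage factor, and were 3 or 4 in each fit without 1 pool. Of these, 3 passed without HM or without HZ of 18 somites, 2 without HM or without HZ of 21, and 0 without either pool of 24. Ghrl (ghrelin) had 1090, 51.0 and 219 CPM in HM pools and 796, 1546 and 1410 CPM in HZ pools. HM exceeded HZ at 18 somites and was lower at 21 and 24 (log2 fold change -2.45 ± 0.81, unadjusted p = 0.0109). Ghrl at 1000 CPM or more was found in 4 of 32 HM cells, 3 of them of 18 somites, and in 5 of 23 HZ cells. One HZ cell of 21 somites with 10910 CPM gave 88.7% of its pool's Ghrl reads. Pyy (peptide YY) had 55.5, 2.23 and 7.37 CPM in HM pools and 135, 24.3 and 215 CPM in HZ pools, lower in HM at each stage (log2 fold change -3.20 ± 0.67, edgeR adjusted p = 0.493). Cck (cholecystokinin) was at 0, 0 and 1.24 CPM in HM pools and 0.209, 66.4 and 72.1 CPM in HZ pools. Gcg (glucagon) had 2.05, 0.930 and 6.49 CPM in HM pools and 2.51, 8.83 and 21.3 CPM in HZ pools, and Ins2 (insulin) had 0, 0 and 5.54 CPM in HM pools and 22.4, 10.1 and 17.3 CPM in HZ pools. Of the 26 granule and secretion genes 16 were tested, 0 passed, 4 were lower at an unadjusted p under 0.05, beside 2.17% of all genes, and the median was -2.45. The 4 became 7 of 21 without HM or without HZ of 18 somites (with 1 passing without HZ of 18), 2 of 21 without HM of 24, 1 of 16 without HZ of 24, 1 of 16 with Neurod1 under 10 CPM and 12 of 20 with no Neurod1 threshold. The 4 were the vesicle GTPase Rab3d (-3.93 ± 1.20), the granule membrane protein Ptprn2 (-5.24 ± 1.81), Syt13 of the synaptotagmin family (-2.59 ± 0.95) and the complexin Cplx2 (-1.55 ± 0.64).

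The cell cycle exit list gave no call either. Of its 16 tested genes, 0 passed, 13 were negative, beside 53.3% of all genes, and 4 were lower at an unadjusted p under 0.05, beside 2.17% (median log2 fold change -0.90). Besides Btg2 and Cdkn1a these were Cdkn1b (p27, -1.26 ± 0.36) and Gadd45g (-1.90 ± 0.59), a growth arrest gene at 18.5, 19.0 and 6.64 CPM in HM pools and 57.9, 64.6 and 32.2 CPM in HZ pools. In this list 2 genes passed without HM or without HZ of 18 somites, 1 without HM or without HZ of 21, and 0 without either pool of 24. Of 23 S phase genes 0 passed, at a median of 0.32. In 4 of them every HM pool lay above every HZ pool, beside 3.94% of all genes. At an unadjusted p under 0.05, 2 were higher, beside 1.14% of all genes. The higher ones were Pola1, the catalytic subunit of DNA polymerase alpha, with 228, 72.0 and 61.4 CPM in HM pools and 29.7, 22.8 and 31.8 CPM in HZ pools (log2 fold change 1.84 ± 0.47, edgeR adjusted p = 0.912), and the replicative helicase subunit Mcm7 (0.70 ± 0.27). Of 23 G2 and M phase genes 0 passed and 0 reached an unadjusted p under 0.05, at a median of -0.12. Single pools turned this list: the median was 0.41, with 4 higher at an unadjusted p under 0.05, without HM or without HZ of 18 somites. It was -0.75 without HM of 21 somites, with 10 lower and 3 of them passing. Without HZ of 21 somites it was -0.76, with 12 lower and 4 passing. Over all genes at that unadjusted level, 308 of 13759 were higher without HM of 18 somites and 298 of 13658 without HZ of 18. Lower were 330 of 13608 without HM of 21 somites and 332 of 13643 without HZ of 21.

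No gene passed as higher in HM. Among genes with a positive value the metallothioneins, small proteins that bind zinc and copper, had the smallest p-values. Mt2 had 291, 919 and 525 CPM in HM pools and 137, 401 and 292 CPM in HZ pools (log2 fold change 1.04 ± 0.19), and Mt1 had 682, 2136 and 1181 CPM in HM pools and 394, 1084 and 764 CPM in HZ pools (0.80 ± 0.15), both with an edgeR adjusted p of 0.311. HM was above HZ at each stage for both, but the ranges overlapped, and at 21 somites 1 HM cell held 78.5% of the Mt2 reads and 76.6% of the Mt1 reads. H19, an imprinted noncoding RNA, had 458, 1150 and 2106 CPM in HM pools and 327, 563 and 1033 CPM in HZ pools, also higher at each stage (0.85 ± 0.17, adjusted p = 0.359). Krt18, an epithelial keratin, had 2608, 2214 and 1185 CPM in HM pools and 1474, 1212 and 1047 CPM in HZ pools (0.62 ± 0.16, adjusted p = 0.891).

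Signalling lists gave 0 calls in the main fit. In the Notch list 3 genes passed as lower without HM or without HZ of 18 somites, and 0 in the other fits without 1 pool. Over all genes, 2.17% were lower and 1.14% higher in the main fit at an unadjusted p under 0.05. The single genes at that level named below are therefore a description. Of 22 Notch genes tested, 1 was lower at an unadjusted p under 0.05, the ligand Dll1 with 58.1, 35.5 and 20.7 CPM in HM pools and 88.2, 126 and 93.8 CPM in HZ pools (log2 fold change -1.54 ± 0.44), and 1 was higher, Id2, an inhibitor of basic helix-loop-helix factors (0.66 ± 0.20). The ligand Dll3 was at 18.2, 0 and 0.584 CPM in HM pools and 0.836, 42.7 and 66.4 CPM in HZ pools, and the fringe enzyme Mfng at 37.9, 0 and 0.584 CPM in HM pools and 18.0, 36.0 and 16.4 CPM in HZ pools. For both genes the HM pool of 18 somites stood above the other HM pools. Among 19 Wnt genes tested, the receptor Fzd7 was higher (1.08 ± 0.29) and the R-spondin receptor Lgr4 lower (-0.91 ± 0.32) at an unadjusted p under 0.05. Of 12 Hedgehog, 19 FGF and BMP, and 11 retinoic acid genes tested, 0 reached that level. The ligand Shh, which the early pancreatic epithelium keeps low, had 14.1, 14.3 and 4.96 CPM in HM pools and 22.0, 4.09 and 4.78 CPM in HZ pools. Of 16 epithelial adhesion genes 1 was higher at that level (Krt18), 0 of 7 mesenchymal switch genes and 0 of 23 nuclear respiratory chain genes reached it, and of 12 dissociation stress genes Btg2 alone did.

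To ask whether these differences were particular to Pdx1-positive cells, the genotype difference was compared with that in the 180 Neurod1-low cells of the same genotypes and stages with Pdx1 under 50 CPM (81 HM and 99 HZ). Of 14645 genes tested for a difference between the 2 classes, 0 passed (0%), with 225 (1.54%) lower and 227 (1.55%) higher at an unadjusted p under 0.05 in edgeR, and limma-voom with genotype and stage as a block also called 0. In that edgeR fit of both classes together, 20 genes passed as lower in HM within Pdx1-low cells (0.137%) and 0 as higher. The joint fit tested more genes and had 6 residual degrees of freedom, against 2 in the main fit. Its 20 genes are therefore not comparable with the 1 gene of the main fit. Nefm was among the 20 (log2 fold change -5.62 ± 0.76, edgeR adjusted p = 0.00859), and its 2 fold changes differed by -0.56 ± 0.95. Slc38a5 was also among them, with 7.30, 16.4 and 136 CPM in Pdx1-low HM pools and 370, 1261 and 1534 CPM in Pdx1-low HZ pools (-4.99 ± 0.60, adjusted p = 0.00415). The log2 fold change of Slc38a5 was less negative in Pdx1-positive cells by 2.15 ± 0.76, which did not pass (unadjusted p = 0.0119, edgeR adjusted p = 1). Enc1, an actin-binding protein, had the smallest p among genes with a higher log2 fold change in Pdx1-positive cells. Its mean was 70.8 CPM over HM and 228 CPM over HZ Pdx1-positive pools, beside 10.7 CPM over HM and 356 CPM over HZ Pdx1-low pools (difference 3.69 ± 0.93, unadjusted p = 0.00107, edgeR adjusted p = 1). Fxyd2, a modulator of the sodium pump, had the smallest p in the other direction, with a mean of 0.267 CPM over HM and 4.85 CPM over HZ Pdx1-positive pools, beside 76.3 CPM over HM and 16.4 CPM over HZ Pdx1-low pools (difference -5.08 ± 1.21). For Neurog3 the log2 fold change was -2.66 ± 0.69 in Pdx1-low cells, and the difference of 0.90 ± 0.90 was smaller than 2 SE. The programme list had a median of -2.68 in Pdx1-low cells, over the 34 of its genes tested in the joint fit. Cells of a genotype and stage may come from the same embryos in both classes, which the labels do not say. The edgeR test between classes took the pools as independent, so its SEs and p-values do not allow for this. Only the limma-voom fit had a block for it, with an estimated correlation of -0.094 within blocks.

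**Figure D4:**
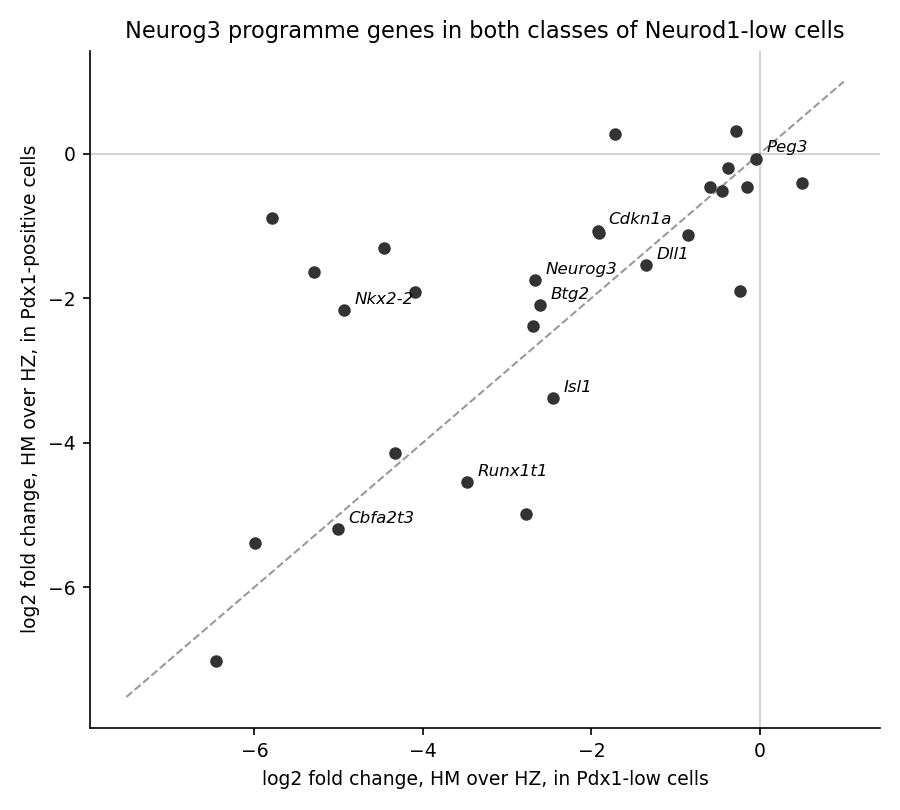
Log2 fold change of HM over HZ for the tested Neurog3 programme genes in Pdx1-low cells (x) and Pdx1-positive cells (y). Both classes have Neurod1 under 50 CPM, and the dashed line marks equal values. The x values come from the joint fit of both classes and the y values from the fit of Pdx1-positive cells alone. Most genes are below 0 on both axes, among them Runx1t1 and Cbfa2t3 near the line and Nkx2-2 with the less negative value in Pdx1-positive cells, and no gene passed the test of the difference.

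Markers of other cell types were summed per pool without scaling. Endocrine markers summed to 85.3 to 1141 CPM in HM pools and 963 to 1875 CPM in HZ pools. Ghrl is 1 of those 12 genes and makes up most of each sum, and Neurod1, which was used to choose the cells, is another. Markers of neural crest and neurons summed to 12.1 to 77.6 CPM in HM pools and 134 to 528 CPM in HZ pools, but Nefm is 1 of those 10 genes, and the crest-defining factors Sox10 and Foxd3 had 0 reads in all 55 cells. Of other neuronal cytoskeleton members of that list, Tubb3 had 17.6, 1.12 and 4.16 CPM in HM pools and 48.3, 21.1 and 157 CPM in HZ pools, without overlap (log2 fold change -3.66 ± 0.84, edgeR adjusted p = 0.681). Nefl had 29.9, 5.77 and 9.70 CPM in HM pools and 8.57, 60.3 and 139 CPM in HZ pools, higher in HM at 18 somites and lower at 21 and 24 (-2.21 ± 1.16, edgeR adjusted p = 1.00). Markers of blood and endothelium summed to at most 0.977 CPM in HM pools and 1.30 CPM in HZ pools. Liver markers summed to 350 to 1231 CPM in HM pools and 635 to 724 CPM in HZ pools, and those of bile duct and gallbladder to 129 to 396 CPM in HM pools and 266 to 386 CPM in HZ pools. Duodenum and intestine markers summed to 8.62 to 133 CPM over HM pools and 47.2 to 163 CPM over HZ pools. Stomach and anterior foregut markers, of which Nkx2-1, Nkx2-3 and Barx1 had 0 reads, summed to 43.0 to 102 CPM over HM pools and 33.2 to 69.6 CPM over HZ pools. Mesenchyme markers summed to 34.8 to 59.8 CPM over HM pools and 16.2 to 66.7 CPM over HZ pools, and notochord markers to 13.8 to 27.3 CPM over HM pools and 4.52 to 42.0 CPM over HZ pools. The part of the cell mixture in the differences above was not tested.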

How the data were processed

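Each sample was 1 sorted endoderm cell. The authors deposited a table of read counts per gene and cell, whole numbers without scaling, and their own TPM values in another table. The tools named, per the submitters' processing notes, are HISAT2 2.1.0, Trimmomatic 0.39 and FastQC 0.11.9, with builds GRCm38 and mm10. Not given in the sources used here are the read counter, whether it used strand or molecular identifiers, and any cell filter, so reads are not independent molecules, and reads of overlapping genes cannot be separated.

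The member cells and all gene lists were chosen with earlier results of these data known. From the deposited counts, CPM was computed per cell, cells were chosen by the thresholds in the report, and counts were summed per genotype and stage. The fit used edgeR 4.0.16 in R 4.3.3 (quasi-likelihood test, TMM scaling, filterByExpr, genotype and stage as factors, Benjamini-Hochberg threshold of 0.05). The SE is the log2 fold change divided by the square root of F. With 1 pool per genotype and stage, a gene's own residual spread is that of the difference between 3 stages. It includes real changes with stage, and 2 residual degrees of freedom remain. The edgeR fit moderates each gene's variance with that of the other genes. Its p-values and intervals therefore rest largely on variance borrowed from other genes, and use more degrees of freedom than these 2. Alternatives used DESeq2 1.42.0, limma 3.58.1 on mean log2(CPM + 1) or log2(TPM + 1), other scaling, filters and thresholds, and fits without 1 pool. Cell thinning was to 100000 reads. No doublet caller was run, and no 2 of the 830 columns were identical. Named genes were 18 landmarks, genes past the threshold at 20 CPM or more (filled to 5 per direction by smallest p), up to 4 genes per list by smallest p, and the 5 smallest p per direction in the test between classes; not all are printed. Peg3, Tubb3 and Nefl lie outside that rule and were chosen after they were seen. Positions are from GENCODE vM21 (GRCm38). The edgeR code was tested on simulated counts for this comparison, where it recovered 61% of genes changed 4-fold and 88% of those changed 16-fold. Of 152 calls 3 were false. Only genes with a mean of at least 20 CPM were changed, and no stage effect was simulated. These rates check the code and are not the power of the comparison on the real pools.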

Additional observations from a re-analysis of the deposited data

Results flagged for a closer look

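The thresholds were also met by cells outside the stages compared, namely 4 HM cells and 1 HZ cell of 15 somites, 1 HM and 1 HZ cell of 27 somites, and 3 Ngn3Cre cells. The HZ cell of 27 somites had 1165 CPM of Neurog3, above the highest Pdx1-positive cell of the comparison (529 CPM, HZ of 21 somites), and stands out for that reason. The HM cell of 27 somites had 27.2 CPM. With 1 cell of each genotype at that stage no test was made.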

How the results depend on the processing

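No paired analysis was possible because the numbers in the labels count cells within a genotype and stage and mark no shared embryo or litter. The number of genes lower in HM, 1 in edgeR with TMM, was 34 with no filter on low counts, 10 with Pdx1 at 100 CPM or more, 7 with all genotypes and stages allowed (of which only the HM pool of 15 somites had enough cells to be added), 5 with no Neurod1 threshold, 2 with cells thinned to 100000 reads or with at least 200000 reads, and 49 in DESeq2. It was 0 with a mean of at least 5 CPM, with no stage factor, with Neurod1 under 10 CPM, with cells of Neurog3 under 50 CPM alone, and in limma on CPM and on TPM. The number higher, 0 in edgeR with TMM, was 5 with no filter, 1 with Pdx1 at 100 CPM or more and 12 in DESeq2. With 1 pool left out, 0 to 57 genes were lower (57, 30 and 3 without HM of 18, 21 and 24 somites, and 56, 27 and 0 without HZ) and 0 to 13 were higher (13, 3 and 0, and 13, 2 and 0), with 1 residual degree of freedom. RLE scaling, no scaling factors, pools of at least 1 or 5 cells, Pdx1 at 25 CPM and cells of at least 50000 reads kept the counts at 1 and 0. The test between classes called 0 genes under each of its alternatives. Neurog3 had a positive log2 fold change (0.38) with cells of Neurog3 under 50 CPM alone, a choice that removes 1 HM and 5 HZ cells with the most Neurog3, and -2.05 to -0.56 otherwise. The cause of the other changes was not tested. Pools held 3480538 to 13304268 reads from 5 to 20 cells, and 3 reads, the limit that a count of 0 allows, came to 0.225 to 0.862 CPM.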
